A study of Mus musculus with 8 samples.

Results

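Genes of the Wnt and beta-catenin pathway were read in mouse leukaemia stem cells with and without Pik3ca. The set comprised 10 genes chosen by name: the co-receptors Lrp5 and Lrp6, the scaffold and kinase genes Axin1, Axin2, Apc and Csnk1a1, the transcription factor genes Tcf7l1, Tcf7l2 and Lef1, and Ctnnb1, which encodes beta-catenin. Each gene was represented by the array row carrying its symbol, and 9 of the 10 had such a row, among 19505 symbols in all. Ctnnb1 carried no row in the table used for names and was not analysed here, so no result below measures beta-catenin itself. Granulocyte-macrophage progenitors (GMPs) positive for GFP were sorted from the bone marrow of mice that had received a transplant of cells with MLL-AF9, a fusion oncogene that confers self-renewal on myeloid progenitors. The groups were Pik3ca-/- cells (KO, 3 arrays) and WT cells (5 arrays), and both carried MLL-AF9. Pik3ca encodes a catalytic subunit of phosphoinositide 3-kinase. The labels state neither the age and strain of the mice nor how, or in which part, the gene was deleted. Whether each array had a mouse of its own is not stated either, so p-values measure only the spread between these samples, which may be technical.

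In the absence of a Wnt signal, beta-catenin is held by a complex of AXIN and APC, phosphorylated by casein kinase 1 and glycogen synthase kinase 3, and degraded. A Wnt ligand bound to a Frizzled receptor and to LRP5 or LRP6 draws AXIN to the membrane, and beta-catenin then accumulates and acts in the nucleus with the DNA-binding factors of the TCF and LEF family. Axin2 and Lef1 are themselves commonly switched on by this pathway and serve as its readouts. Beta-catenin is known for its part in the self-renewal of leukaemia stem cells, and glycogen synthase kinase 3 is also a substrate of AKT, the kinase downstream of phosphoinositide 3-kinase. The comparison asked how the transcripts of the pathway stood in these cells and whether they differed without Pik3ca.

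All values are the deposited signals on a log2 scale, which ran from 1.89 to 18.6, and the median transcript row of an array lay between 5.20 and 5.40. A row at or below that median is called dim here. WT array 3 stood apart, correlating across genes with the other arrays at a mean of 0.925, where the rest stood at 0.970 to 0.973, and many results are therefore also given without it. Pik3ca itself was 8.73 to 9.40 in KO and 8.41 to 9.58 in WT, with the lowest value in WT array 3. The difference was -0.16 (exact two-sided permutation p of 0.661). Without WT array 3 the WT arrays were 9.48 to 9.58, above all KO arrays, and the difference was -0.39, with an exact two-sided p of 0.0286, the smallest that 35 splits can give, and a limma adjusted p of 0.989. Its probes may lie outside the deleted part, so it did not check the genotype labels. The 9 GMP markers fixed for the sorted population ran from 5.63, for Cd34 in KO array 1, to 17.89. Cd34 was 5.63 to 7.81 in KO and 7.24 to 10.94 in WT. All 9, among them Mpo, Elane and Kit, lay above the array median on all 8 arrays. So did all 6 monocyte and macrophage markers and all 8 maturing neutrophil markers named on the array, with Camp at 17.45 to 17.80, so these lists did not set the GMPs apart from later myeloid cells. Single arrays also held markers of other cells: the platelet gene Pf4 was 12.44 in WT array 1 and 5.56 to 8.17 elsewhere, and the eosinophil gene Prg2 was 11.98 and 12.84 in WT arrays 3 and 4 and 6.22 to 8.64 elsewhere. Of the other eosinophil markers, Prg3 was also highest in WT arrays 3 and 4. Siglecf was highest in KO array 1, at 11.84, and Epx was below the median on all arrays.

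The regulatory sequence of the pathway's own readout genes is shown because their rows were dim. The windows run from 250 bases before to 50 bases after an annotated start site, from RefSeq on GRCm38.p6, and 4 of the 9 members had at least 1 window in that table, 8 windows in all. The binding motif of TCF and LEF factors was searched on both strands as CTTTGNN, where each N was A or T, and is in capitals. It was present in 2 of the 8 windows, 1 of Tcf7l2 and 1 of Lef1, and in 16.9% of all 32851 windows of the same length. The Axin2 window lies at chr11:108920099-108920398 on the plus strand, the Lef1 windows at chr3:131110047-131110346 and chr3:131156044-131156343 on the plus strand, and the Tcf7l2 window at chr19:55895071-55895370 on the plus strand.
Axin2: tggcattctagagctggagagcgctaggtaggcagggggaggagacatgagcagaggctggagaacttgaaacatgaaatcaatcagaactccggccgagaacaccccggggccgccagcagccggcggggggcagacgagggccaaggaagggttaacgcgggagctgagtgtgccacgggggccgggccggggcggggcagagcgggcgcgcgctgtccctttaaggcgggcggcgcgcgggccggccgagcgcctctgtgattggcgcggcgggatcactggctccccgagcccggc
Lef1, first start site: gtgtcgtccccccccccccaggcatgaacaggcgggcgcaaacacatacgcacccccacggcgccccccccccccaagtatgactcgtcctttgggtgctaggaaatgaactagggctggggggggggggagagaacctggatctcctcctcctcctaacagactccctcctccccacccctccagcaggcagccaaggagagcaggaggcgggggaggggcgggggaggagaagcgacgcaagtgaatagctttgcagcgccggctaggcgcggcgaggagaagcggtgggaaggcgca
Lef1, downstream start site: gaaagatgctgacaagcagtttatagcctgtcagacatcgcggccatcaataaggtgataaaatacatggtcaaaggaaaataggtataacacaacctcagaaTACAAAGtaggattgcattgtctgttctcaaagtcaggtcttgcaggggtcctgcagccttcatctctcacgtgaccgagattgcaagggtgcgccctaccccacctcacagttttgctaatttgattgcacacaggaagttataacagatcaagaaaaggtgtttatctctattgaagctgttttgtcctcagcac
Tcf7l2, downstream start site: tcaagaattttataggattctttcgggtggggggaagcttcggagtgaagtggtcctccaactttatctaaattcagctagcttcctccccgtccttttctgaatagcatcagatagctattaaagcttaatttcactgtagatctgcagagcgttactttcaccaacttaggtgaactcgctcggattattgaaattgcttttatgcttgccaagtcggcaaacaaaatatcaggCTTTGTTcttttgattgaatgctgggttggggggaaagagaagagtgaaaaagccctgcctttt
The Lef1 match, TACAAAG on the printed strand, began at base 104 of its window, and the Tcf7l2 match, CTTTGTT, at base 237. The Axin2 window and the first Lef1 window held none of these letters. The first Lef1 window had a GC content of 67.3% and the downstream window 43.7%, against 70.0% for Axin2. A match is a run of letters and was not measured as a bound site here, and the absence of a match says only that these letters are not in the window.

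Of the 9 members, 5 lay above the array median on all 8 arrays: Lrp5, Lrp6, Axin1, Csnk1a1 and Apc. Over all symbols on the array the share was 44.1%. Axin2, Lef1 and Tcf7l2 lay below it on all 8 arrays, as did 41.9% of all symbols, and Tcf7l1 lay above it on 6 arrays. The co-receptors and the parts of the complex that holds beta-catenin were thus read above the median, and Axin2 and the transcription factor genes below or near it. Against a stricter level, the 95th percentile of rows named as negative controls, Axin1 and Lrp6 were above on 8 arrays, Lrp5 and Csnk1a1 on 7, all but WT array 3, and Apc on 0. On the deposited scale Lef1 lay between percentiles 4.49 and 20.7 of the transcript rows of its array, Axin2 between 9.05 and 21.6 and Tcf7l2 between 11.1 and 41.0. In a bulk sample, fewer cells of a type and less RNA per cell cannot be told apart.

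**Figure D1:**
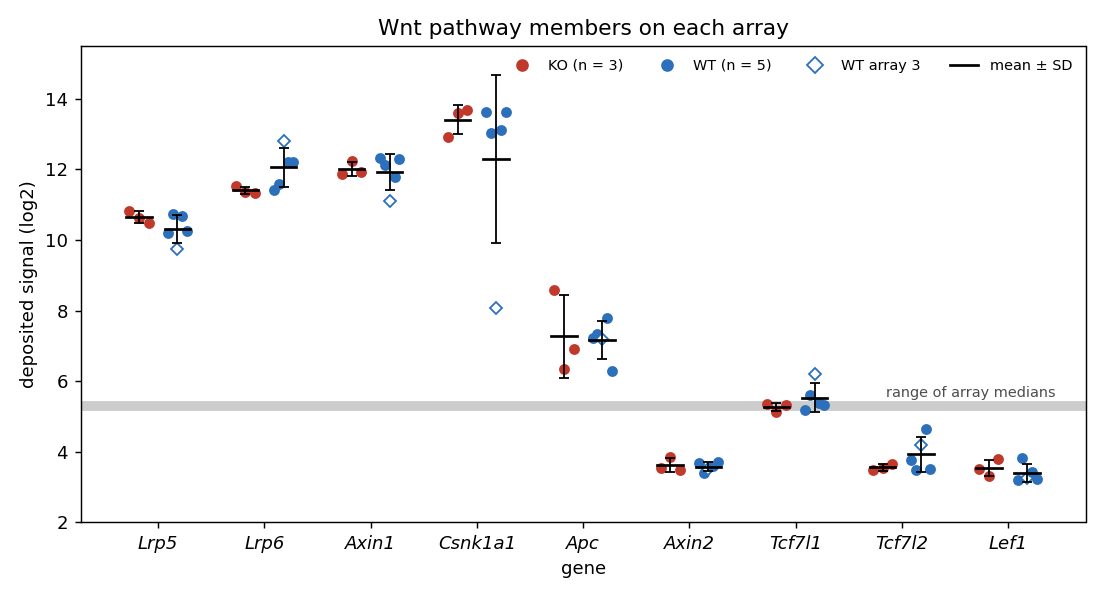
Deposited log2 signal (vertical axis) of the 9 members on each array, with KO in red and WT in blue, WT array 3 as an open diamond, bars for the mean ± SD and a grey band for the range of the array medians, 5.20 to 5.40. Lrp5, Lrp6, Axin1, Csnk1a1 and Apc lay above the band on every array, Axin2, Tcf7l2 and Lef1 below it, and Csnk1a1 was far lower on WT array 3, at 8.06, than on the others. Levels of different genes come from different probes and are to be read against the band only.

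No member passed the test between KO and WT. With limma on 10293 genes that lay above the median on at least 3 arrays, 0 of the 6 members tested had an adjusted p under 0.05, and 0% of all genes did, with a smallest adjusted p of 0.999. At an unadjusted p under 0.05 there were 0 of the 6 members and 2.86% of all genes tested. The other 3 members, Axin2, Lef1 and Tcf7l2, were below the filter and were read in the same model fitted to all 19505 symbols, where adjusted p were 0.999 too and 3.04% of symbols had an unadjusted p under 0.05, but 0 of these 3. The KO and WT arrays overlapped in each of the 9 members, and did so also without WT array 3. Groups that did not overlap made up 3.1% of the genes tested, 5.54% of them without WT array 3, and 3.11% of all symbols without the filter. Of the 6 members tested, 4 had a higher mean in KO, against 55.7% of all genes, and the median difference was 0.10 against 0.04 over all genes. Without WT array 3 these were 3 of 6 and a median of -0.03, against 50.4% and 0.00165 over all genes.

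Among the co-receptors, Lrp6 had the smallest p of the members. LRP6 is the membrane protein whose phosphorylated tail recruits AXIN. Its signal was 11.52, 11.36 and 11.34 in KO arrays 1 to 3 and 11.43, 11.60, 12.82, 12.22 and 12.21 in WT arrays 1 to 5. The 3 KO arrays were close together and shared their range with WT array 1, with WT array 2 just above, whereas WT arrays 3, 4 and 5 were higher. KO averaged 11.41 ± 0.10 (SD, n = 3) and WT averaged 12.05 ± 0.56 (SD, n = 5), a log2 difference of -0.65 with a standard error of 0.32. The 95% confidence interval ran from -1.37 to 0.07. Over the 56 splits of the arrays the exact two-sided p was 0.0536, where the smallest possible is 0.0179, and the limma p was 0.0728, with an adjusted p of 0.999. WT array 3 held the highest value, and without it the difference was -0.46, with an exact two-sided p of 0.171 over the 35 splits of the other arrays.

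Lrp5 encodes the other co-receptor, which pairs with Frizzled receptors in the same way. It was 10.81, 10.63 and 10.48 in KO and 10.19, 10.72, 9.75, 10.68 and 10.26 in WT. The KO arrays lay within or just above the upper part of the WT range, and WT array 3 was the lowest of the 8. The difference was 0.32 with a standard error of 0.26, within the spread of the arrays (exact two-sided permutation p of 0.268). Without WT array 3 it was 0.17. The co-receptor genes thus had differences of opposite sign, and neither passed the test. Whether the 2 differences themselves differ was not tested.

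Axin1, the scaffold that limits the assembly of the complex, was bright. It was 11.86, 12.25 and 11.94 in KO and 12.31, 12.12, 11.11, 11.78 and 12.30 in WT. WT array 3 was the lowest of the 8, by 1.02 against the mean of the remaining WT arrays, in a group whose other 4 values spanned 11.78 to 12.31. The difference was 0.09 with a standard error of 0.30, and it was -0.11 without WT array 3, so it has no settled direction. The 95% confidence interval ran from -0.59 to 0.78 with all arrays and from -0.57 to 0.34 without WT array 3.

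Csnk1a1 encodes casein kinase 1 alpha, which places the first phosphate on beta-catenin. It was 12.93, 13.59 and 13.69 in KO and 13.62, 13.05, 8.06, 13.13 and 13.64 in WT. Of the 8 arrays, 7 lay between 12.93 and 13.69 and WT array 3 lay at 8.06. The difference of 1.11, with a standard error of 1.18, rested on that array and was 0.05 without it, with a standard error of 0.26. WT array 3 differed from the mean of the remaining WT arrays by -5.30 here, against a median shift of -0.13 on that array over all genes tested. The part of array quality in this value was not tested.

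Apc encodes the large scaffold that, when lost, lets beta-catenin accumulate. It was 8.59, 6.33 and 6.90 in KO and 7.21, 7.33, 7.20, 7.80 and 6.30 in WT. KO array 1 was the highest of the 8 arrays, while KO array 2 and WT array 5 were the lowest and nearly equal. The means were 7.28 ± 1.18 (SD, n = 3) and 7.17 ± 0.54 (SD, n = 5), and the difference of 0.11 had a standard error of 0.51. It was -0.55 without KO array 1, -0.11 without WT array 5 and 0.58 without KO array 2. Leaving out either of the first 2 arrays alone thus turned its sign.

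Axin2, the feedback scaffold induced by beta-catenin, was dim in both groups. It was 3.55, 3.84 and 3.47 in KO and 3.69, 3.39, 3.51, 3.60 and 3.69 in WT, a range of 0.45 over all 8 arrays. The groups lay on top of each other, with a difference of 0.04 and a 95% confidence interval from -0.30 to 0.38. The row was in the low part of each array's range, where a change in a lowly expressed transcript could be missed.

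The 3 transcription factor genes of the TCF and LEF family were dim or near the median. Lef1 was 3.52, 3.32 and 3.78 in KO and 3.20, 3.81, 3.26, 3.42 and 3.24 in WT, with the highest value in WT array 2 and the groups overlapping. Its difference was 0.15 with a standard error of 0.19, and 0.03 without KO array 3. Lef1 is also a gene of T and B lymphocytes, and of the 8 T cell markers named on the array 5, Cd3e, Cd3g, Thy1, Cd8a and Bcl11b, were below the median on all arrays. Cd4 and Cd5 were above it on all arrays. The mean of the T cell list was 4.53 to 4.97 in KO and 4.54 to 5.25 in WT. Of the 7 B cell markers named on the array, Cd79a, Pax5 and Ms4a1 were below the median on all arrays and Cd79b and Vpreb1 above it on all, and the list mean was 5.01 to 5.09 in KO and 4.85 to 5.69 in WT. The part of lymphocytes in the Lef1 values was not tested.

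Tcf7l2, which encodes the family member best known in gut epithelium, was 3.48, 3.52 and 3.66 in KO and 3.75, 3.49, 4.20, 4.65 and 3.51 in WT. WT arrays 4 and 3 were the highest, and the other 6 arrays lay between 3.48 and 3.75. The difference of -0.36, with a standard error of 0.28, was within the spread (exact two-sided permutation p of 0.268), and it was -0.18 without WT array 4. The eosinophil genes Prg2 and Prg3 were also highest in WT arrays 3 and 4. The other eosinophil markers were not: Siglecf was highest in KO array 1, at 11.84, and the dim Epx in WT array 2, at 4.74. The eosinophil list mean was 7.46 to 7.82 in KO and 7.31 to 10.06 in WT. The part of such cells in the Tcf7l2 values was not tested. Tcf7l1, whose protein mainly represses its targets, was 5.34, 5.13 and 5.34 in KO and 5.17, 5.61, 6.21, 5.37 and 5.31 in WT. It lay close to the array median in most samples and was highest in WT array 3, and its difference of -0.27 was -0.10 without that array. None of the 3 genes passed, and exact permutation p were 0.429 for Lef1 and 0.357 for Tcf7l1. Tcf7, the remaining gene of this family, carried no row in the table used for names and was not analysed here.

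**Figure D2:**
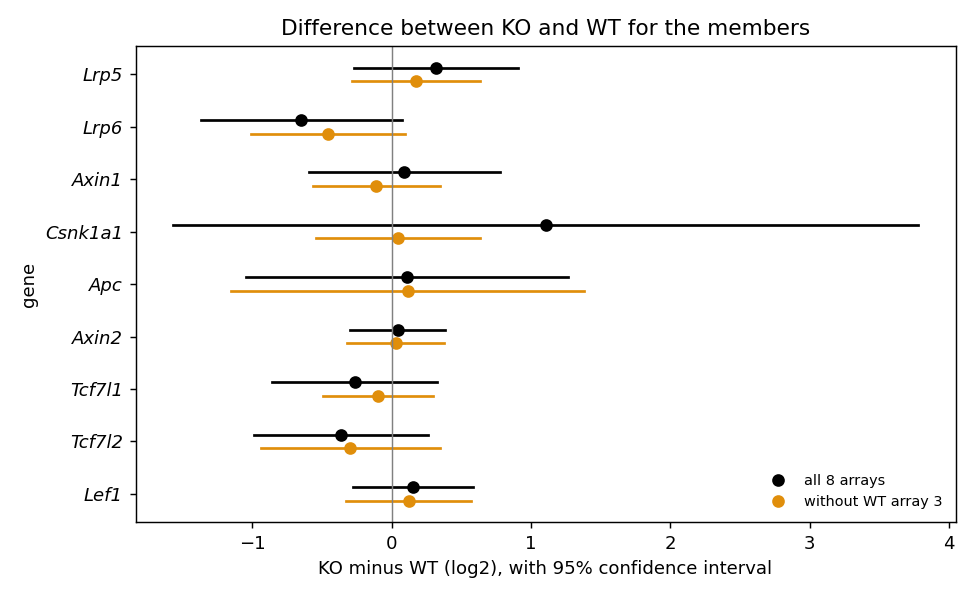
KO minus WT on the log2 scale (horizontal axis) for each of the 9 members, with 95% confidence intervals from limma, in black for all 8 arrays and in orange without WT array 3. All intervals include 0. Leaving out WT array 3 moved Csnk1a1 from 1.11 to 0.05 and Lrp6 from -0.65 to -0.46.

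The members differed in their spread over the arrays. This spread pools KO and WT and holds differences between samples, so it does not measure how precisely a row was read. Over the 8 arrays the SD was 0.14 for Axin2, 0.24 for Lef1, 0.34 for Tcf7l1, 0.35 for Lrp5, 0.40 for Axin1, 0.42 for Tcf7l2, 0.54 for Lrp6, 0.75 for Apc and 1.90 for Csnk1a1. The rows with the smallest spread were thus the dim Axin2 and Lef1, and the row with the largest was Csnk1a1, whose spread came from WT array 3.

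The rest of the pathway was read from 10 lists, which hold 156 genes with the members, 147 of them named on the array and 76 bright enough to test. Of the 147, 65 were above the median on all arrays, or 44.2% against 44.1% of all symbols. That last share is the one to set beside each list's count below. Of the 76, 0 were called higher and 0 lower in KO by limma, 38 were higher and 38 lower in their mean without passing, and the median difference was 0.00283 against 0.04 over all genes. At an unadjusted p under 0.05 there was 1 gene, Nfatc1, or 1.32% of them against 2.86% of all genes tested, and without WT array 3 there were 3, Nfatc1, Med12 and Tnks, or 3.95% against 4.66%. The groups did not overlap in 3 genes, Nfatc1, Med12 and Mapk8, or 3.95% against 3.1% of all genes tested. Without WT array 3, 33 of the 76 were above 0, the median was -0.06 against 0.00165 over all genes, and 4 genes, these 3 and Crebbp, did not overlap, or 5.26% against 5.54%. These shares are near the background, so the lists as a whole did not stand apart from the array.

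Wnt ligands were almost all dim. Of the 19 Wnt genes, 17 were below the array median on every array, Wnt2b was above it on 2 arrays, and Wnt7a alone was above it on all 8, at 5.70 to 6.24. Wnt7a differed by -0.02 between the groups, and by 0.08 without WT array 3. The list for Wnt secretion, which also holds the extracellular Notum, was brighter. In it 3 of 3 genes were above the median on all arrays, against 44.1% of all symbols. Wls, the carrier of Wnt proteins to the cell surface, was 11.07 to 12.07, and Porcn, which attaches their lipid, was 7.35 to 8.11. Their differences were 0.17 and 0.22, and that of Wls was 0.00868 without WT array 3. Notum, an extracellular enzyme that removes the lipid, was 5.24 to 6.40 and differed by 0.05. Against the 95th percentile of the negative control rows, Wls was above on 8 arrays, and Porcn, Notum and Wnt7a on 0.

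Among the 15 receptor genes, 5 were above the median on all arrays: Lrp5 and Lrp6, the Frizzled genes Fzd5 and Fzd7, and Ryk, a Wnt-binding receptor related to kinases. Of the other Frizzled genes, Fzd3 was above the median on 2 arrays and the rest on none. Fzd5 was 6.14 to 6.74 and differed by 0.01, and Fzd7 was 5.43 to 7.0 and differed by -0.36, and by -0.11 without KO array 1. Ryk varied most, from 5.38 in WT array 4 and 5.44 in KO array 3 to 8.14 in KO array 2 and 8.34 in WT array 3, with both groups spanning nearly the whole range. In the R-spondin axis, which controls how long Frizzled receptors stay at the surface, 0 of 8 genes named on the array were above the median on all arrays. Lgr4, an R-spondin receptor, was above it on 7, at 5.07 in KO array 3 and 6.30 to 8.09 elsewhere, and Znrf3, the ligase that removes Frizzled receptors and a target of the pathway, on 3. They differed by -0.31 and -0.36, and by 0.50 for Lgr4 without KO array 3 and -0.02 for Znrf3 without WT array 3. Of 15 secreted inhibitors and their receptors, Kremen1, a receptor of the DKK inhibitors, at 7.78 to 9.38, and Sostdc1, an LRP-binding inhibitor, at 5.47 to 6.13, were above the median on all arrays, and 10 were below it on all. Kremen1 differed by 0.26, by -0.15 without KO array 1 and by 0.13 without WT array 3. Sostdc1 differed by -0.00191, and by 0.10 without WT array 3. Against the 95th percentile of the negative control rows, Fzd5, Fzd7, Ryk, Lgr4, Znrf3, Kremen1 and Sostdc1 were above on 0 arrays.

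**Figure D3:**
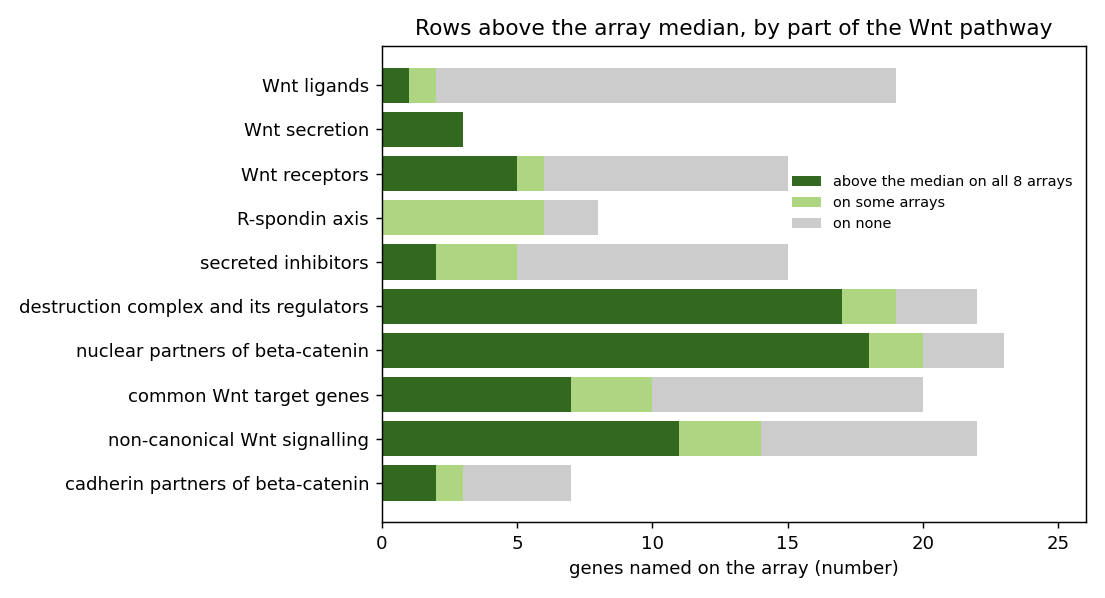
Number of genes named on the array (horizontal axis) in each of 10 lists of the Wnt pathway, split into genes above the array median on all 8 arrays, on some arrays and on none. Of 19 ligands 1 was above on all arrays, against 17 of 22 genes of the destruction complex and its regulators and 18 of 23 nuclear partners. Of all symbols, 44.1% were above on all arrays. The lists share some genes, and each gene is counted in every list that holds it.

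Most genes listed for the complex that degrades beta-catenin and its regulators, and most nuclear partners of beta-catenin, lay above the array median. Over all symbols, 44.1% were above it on all arrays. Of 22 genes of the destruction complex and its regulators, 17 were above the median on all arrays, 19 were tested and 0 were called, 11 with a difference above 0 and 8 below. Without WT array 3, 7 of the 19 were above 0 and the median went from 0.08 to -0.11. WT array 3 was shifted by a median of -0.37 in this list against the other WT arrays. Gsk3a and Gsk3b, which encode glycogen synthase kinase 3, were 12.05 to 12.64 and 11.95 to 13.77 and differed by -0.17 and -0.06. Gsk3b was 11.95 in WT array 3 and 13.18 to 13.77 in the other WT arrays, and without that array it differed by -0.35. Among other casein kinase genes, Csnk1e differed by 0.30 and Csnk1g3 by -0.26, and without KO array 1 Csnk1g3 differed by -0.05. Csnk1g1 was 3.59 in WT array 3, against 8.34 to 9.42 in the other WT arrays, and its difference of 0.32 was -0.74 without that array.

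Csnk1g2 had the smallest p in this list. It encodes casein kinase 1 gamma 2, of the membrane-bound kinases that phosphorylate LRP6. It was 11.41, 11.45 and 11.49 in KO and 11.75, 11.44, 12.52, 11.95 and 12.05 in WT. WT arrays 3, 4 and 5 were the 3 highest of the 8 arrays, as they were for Lrp6, an alignment seen after the values were known. The difference was -0.49 with a standard error of 0.25 (exact two-sided permutation p of 0.107), and it was -0.35 without WT array 3.

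Of the 23 nuclear partners named on the array, 18 were above the median on all arrays, 20 were tested and 0 were called, with 10 above 0 and 10 below and a median of -0.00889. Med12, a subunit of the Mediator complex through which beta-catenin reaches RNA polymerase, was 10.88, 10.94 and 10.67 in KO and 11.08, 11.30, 11.06, 11.19 and 11.35 in WT. All 3 KO arrays were below all 5 WT arrays, and the distance between the nearest arrays was small. The difference was -0.36 with a standard error of 0.18, an exact two-sided permutation p of 0.0179, the smallest that 56 splits can give, and a limma adjusted p of 0.999. It was -0.40 without WT array 3, and between -0.42 and -0.28 with any array left out. Chd8, which encodes a remodeller that restrains beta-catenin, differed by 0.48, and by 0.27 without WT array 3. Tle4, a corepressor that TCF factors bind in the absence of beta-catenin, differed by -0.55, and by -0.24 without WT array 3, where it was 13.42 against 11.74 to 12.19 in the other WT arrays.

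Of the 20 common target genes named on the array, 7 were above the median on all arrays, 10 were below it on all, 9 were tested and 0 were called, with 4 above 0 and 5 below. Myc, a growth-promoting transcription factor gene that many other pathways also drive, was 13.28, 14.15 and 12.69 in KO and 13.93, 14.00, 13.27, 13.95 and 13.44 in WT. KO array 3 was the lowest and KO array 2 the highest of the 8, so the KO arrays enclosed the WT range, and the difference of -0.34 was -0.00453 without KO array 3. Jun, encoding a subunit of the AP-1 factor, differed by -0.26. Bambi, a decoy receptor gene of the TGF-beta family, differed by 0.75, and by 0.28 without KO array 2. Its values of 4.78 in WT array 4 and 7.52 in KO array 2 marked the ends of a range in which the groups overlapped.

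In non-canonical signalling, the branches that do not use beta-catenin, 14 of 22 genes were tested and 0 were called. Nfatc1, encoding a calcium-regulated transcription factor, was 8.78, 9.06 and 8.47 in KO and 9.20, 9.57, 10.58, 10.10 and 9.38 in WT. The KO arrays were all below the WT arrays, and the nearest pair, KO array 2 and WT array 1, lay close together. The difference was -0.99 with a standard error of 0.34, a limma p of 0.0160 with an adjusted p of 0.999, and an exact two-sided permutation p of 0.0536. Without WT array 3, the highest, it was -0.79. Mapk8, encoding the kinase JNK1, was 7.09 to 7.12 in KO and 7.18 to 7.99 in WT, a difference of -0.38, and Prickle1, a planar polarity gene, differed by -0.35. Mapk8 was at -0.26 without WT array 3.

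Beta-catenin also binds cadherins at cell junctions, and the cadherin genes Cdh1, Cdh2 and Cdh5 were below the median on all arrays. Of their catenin partners, Ctnna1, encoding alpha-catenin, was 9.30 to 10.11 in KO and 8.70 to 9.97 in WT and differed by 0.55, and by 0.33 without KO array 1. Ctnnd1, encoding p120-catenin, differed by 0.51, and by 0.23 without WT array 3. Jup, encoding the beta-catenin relative plakoglobin, was 7.04 in WT array 3 and 10.49 in WT array 4, with all other arrays between 8.01 and 9.02. Its difference was -0.03, and -0.44 without WT array 3.

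**Figure D4:**
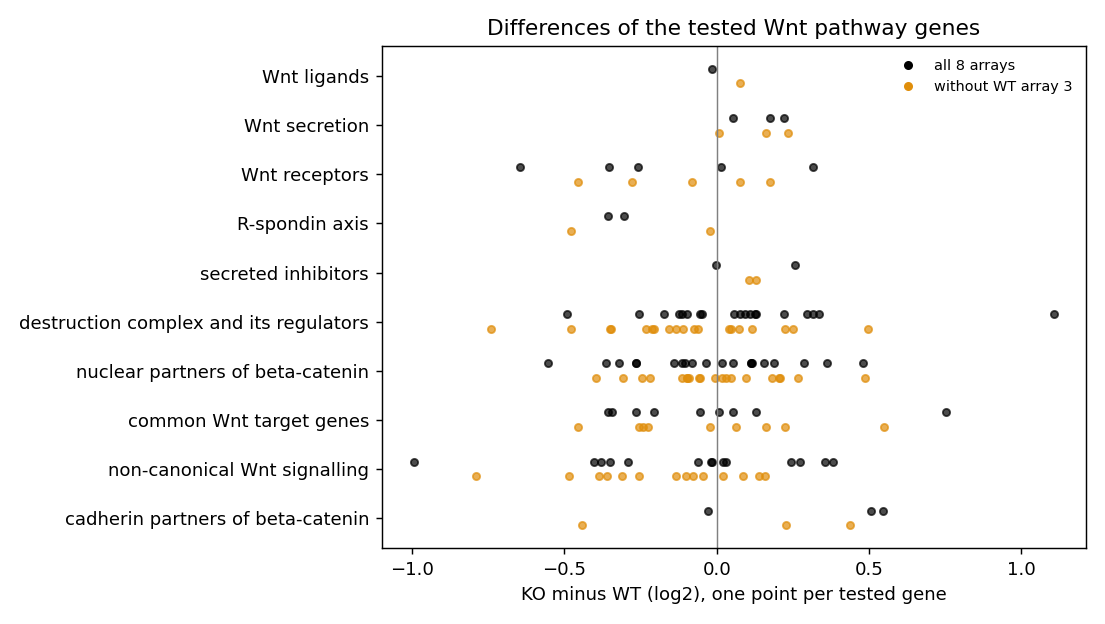
KO minus WT on the log2 scale (horizontal axis) for every tested gene of the 10 lists, 1 point per gene, in black for all 8 arrays and in orange without WT array 3. Points fall on both sides of 0 in most lists, and the farthest are Csnk1a1 at 1.11, which moved to 0.05, and Nfatc1 at -0.99, which moved to -0.79.

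**Figure D5:**
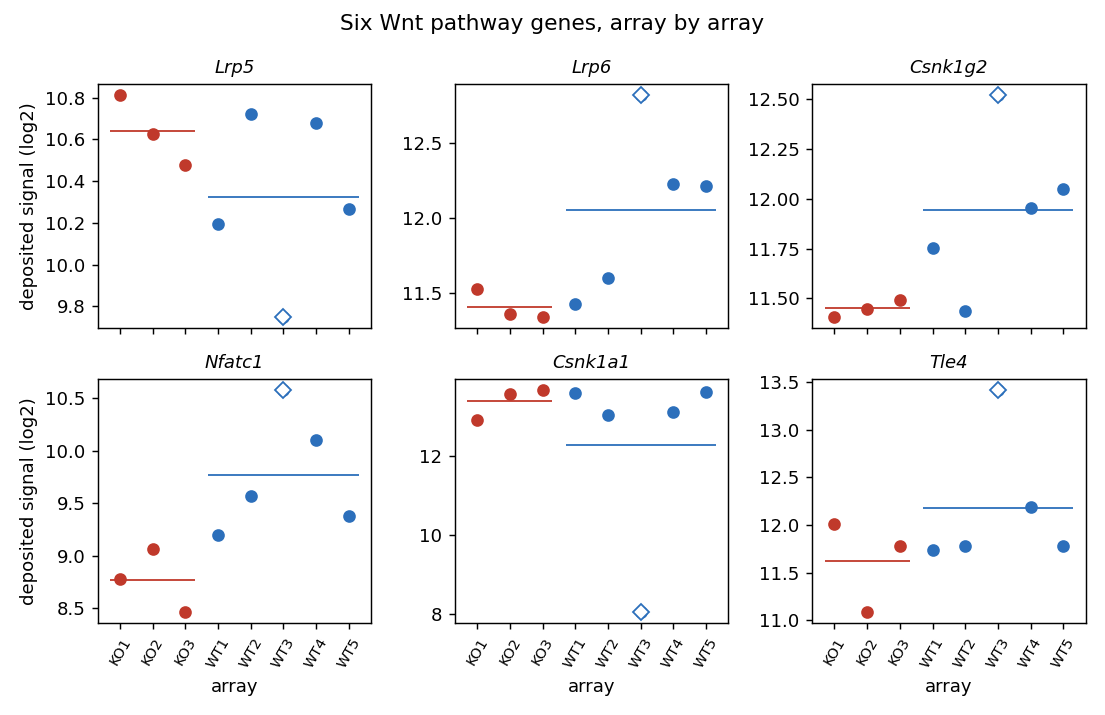
Deposited log2 signal (vertical axis, scaled to each gene) of 6 genes on each array, KO in red and WT in blue, with WT array 3 as an open diamond and lines for the group means. Lrp6 and Csnk1g2 were highest on WT arrays 3, 4 and 5, Nfatc1 was lower on all KO arrays than on all WT arrays, and Csnk1a1 and Tle4 had their extreme value on WT array 3.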

How the data were processed

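Gene expression was measured by microarray in 8 samples, 3 KO and 5 WT, grouped by their titles. Per the labels' protocols, RNA from a small-sample extraction kit was biotin-labelled following Affymetrix's usual procedure. The authors deposited 1 table of log2 values, with 28846 rows, of which 22206 are transcript rows. The log base was read from the range of the values. For background correction, normalization and genome build the sources used here give nothing. Names came from GEO's platform annotation, which gave 1 symbol to 19572 transcript rows, several to 0 and none to 2634.

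A gene was tested if its row lay above the array's median transcript row on at least 3 arrays, and the row with the highest mean stood for a symbol. The groups were compared with limma 3.58.1 in R 4.3.3 (two-sided moderated test from lmFit with eBayes, Benjamini-Hochberg over all genes tested, threshold 0.05) and by exact permutation over samples. The filter was kept when an array was left out. Scripts were tested on simulated data. No 2 arrays were duplicates, the closest pair having a root mean square difference of 0.571.

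The members and lists were chosen with earlier results of these data known. Named genes were all members, up to 3 of each list with the smallest p beside members, and, for ligands, receptors and inhibitors, up to 4 of the brightest genes. Gsk3a, Gsk3b, Csnk1g1, Crebbp, Tnks, Wnt2b, Fzd3, the cadherin genes and, in the last section, Wif1 fall outside that rule and were named after their values were seen.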

Additional observations from a re-analysis of the deposited data

Results flagged for a closer look

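In the 5 WT arrays, 35 genes named by rule were checked for a single distant array, using its gap to the next array as a share of the group's range. This picked out 2 of the 35, where chance gives about 1 in 20. Csnk1a1 was 8.06 in WT array 3, against 13.05 to 13.64 in the other WT arrays. Tle4 was 13.42 in WT array 3, against 11.74 to 12.19. Both were on the array that stood apart in its correlation with the others, and they went in opposite directions. Genes outside the rule were not checked in this way, so the count leaves out other low values on WT array 3. Csnk1g1 was 3.59 there, against 8.34 to 9.42 in the other WT arrays. Crebbp was 13.47 against 14.24 to 14.36, and Pik3ca was 8.41 against 9.48 to 9.58. These genes were picked after their values were seen.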

How the results depend on the processing

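Each member's difference was recomputed under 18 alternatives, and 0 of these 162 values passed the threshold, with adjusted p from 0.939 to 1.000. Fits with no filter, another filter, the row of largest variance, or a trended and robust variance left every member's difference unchanged. Their directions could not turn and say nothing on stability. With these included, the direction was kept in 153. It turned for Apc without KO array 1 (-0.55) and without WT array 5 (-0.11), over a range of -0.55 to 0.58 with any array left out. It turned for Axin1 with array weights (-0.10), without KO array 2 (-0.02) and without WT array 3 (-0.11), over a range of -0.11 to 0.19. It turned for Axin2 at a floor at the 25th percentile (-0.0081), without KO array 2 (-0.064) and without WT array 2 (-0.0024), over a range of -0.064 to 0.12, and for Lef1 at that floor (-0.0081), where all values of both genes sit at the floor. The number of genes called was 0 under all 18 alternatives, with a smallest adjusted p from 0.265 without KO array 3 to 1.000 with quantile normalization, and between 222 and 592 genes at an unadjusted p under 0.05. The median difference over the 9 members was 0.09 and moved by less than the spread between arrays under all 18, but its sign turned without KO array 2 (-0.024) and at the 25th percentile floor (-0.0081). The count of members above a reference level on all arrays was 5 with the median of named rows and with any array left out, and 4 with the 60th percentile. It was 2, Axin1 and Lrp6, against the 95th percentile of the rows named as negative controls, a reference chosen after seeing the data, as was a filter at the median of all rows of the file.

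With the replicate number as a block, 0 genes were called, 349 were at an unadjusted p under 0.05 against 294 without the block, and Lrp6 differed by -0.54. Csnk1a1 differed by 1.83 with the block and by 0.13 with array weights, against 1.11. Deviations of arrays with the same number correlated at 0.02, -0.01 and 0.14, and 2 of 6 arrays were closest to their own number, so the numbers were not taken to pair the samples. The number of arrays limits the precision, and dim rows such as Axin2 and Lef1 say little about small changes.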

Other observations

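Wif1 encodes a secreted protein that binds Wnt ligands. It was the only 1 of the 71 pathway genes below the filter on dim rows whose groups did not overlap. Its signal was 3.52, 3.70 and 3.75 in KO and 3.13, 3.22, 3.45, 3.48 and 3.04 in WT, so every KO array lay above every WT array by a small step in the low part of the range. The difference was 0.39 with a standard error of 0.16, an exact two-sided p of 0.0357 among the 56 splits and a limma adjusted p of 0.999 among all symbols. It was 0.44 without WT array 3. Over all symbols without the filter, 3.11% had groups that did not overlap.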
